A study of Mus musculus with 4 samples.

Results

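The barcodes described here are hindlimb cells of the E14.5 mouse embryo that carried a fibroblast collagen profile together with Aspn and Thbs2 and held few UMIs of Scx, Tnmd, Gdf5 and Sp7, which mark tendon, joint interzone and osteoblasts. They were chosen from the UMI counts of all 4 libraries. A barcode needed at least 3000 UMIs, of which at most 10% were mitochondrial. The summed UMIs of Col1a1, Col1a2 and Col3a1 (F) had to be at or above those of Acan, Col9a1, Col9a2 and Col9a3 (C). Aspn and Thbs2 together had to reach 4 UMIs, with Scx and Tnmd together under 3, Gdf5 under 3 and Sp7 under 2. Of 18955 deposited barcodes, 3640 passed the depth and mitochondrial limits and 436 met the whole rule, which is 11.98% of those that passed. They are called members below. The remaining 1494 barcodes with F at or above C and the 1710 barcodes with C above F are the classes they were compared with.

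Each library held cells of both genotypes. All embryos carried Gli1 CreER, a Cre-dependent tdTomato reporter at Rosa26 and a p21 transgene under a Tet-responsive element at Tigre. Embryos of the Pan-Cart-p21 MOE genotype (MOE) had Col2a1-rtTA in addition, so that doxycycline turned on p21 in cartilage, and controls had no rtTA. All dams received doxycycline in water (1 mg/ml) and food from E12.5 and 120 µg/g tamoxifen by gavage at E13.5, so the controls carried the drugs and every other allele too. Hindlimb tissue, femur and tibia by the deposited protocol, was digested with Accumax and Collagenase B, and tdT+ cells, the lineage of Gli1-expressing cells labelled at the tamoxifen pulse, were sorted from tdT- cells. Each fraction was collected in 2 replicates. Replicate 1 joined male MOE with female control cells and replicate 2 female MOE with male control cells, so genotype was read per barcode from sex genes. The tdT+ and tdT- cells of a replicate and genotype share embryos, and the 8 pseudobulks (4 libraries by 2 genotypes) thus stand for 4 embryo pools, 2 per genotype. The study's text gives differing embryo numbers for these pools, so how many animals the MOE pool of replicate 2 holds is unclear.

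The perichondrium is the fibrous sheath around developing cartilage, and the groove of Ranvier is its thickening beside the growth plate. It is known as a source of osteoblast precursors and of cells that widen the cartilage, and it responds to hedgehog ligand made by prehypertrophic chondrocytes. Aspn encodes asporin, a small leucine-rich proteoglycan that binds collagen and TGF-beta, and Thbs2 encodes thrombospondin 2, a matrix glycoprotein of connective tissue. Runx2 is the transcription factor that starts the osteoblast lineage, Alpl encodes the tissue-nonspecific alkaline phosphatase of mineralizing cells, and Epha3 encodes an ephrin receptor. In GRCm38, Aspn (ENSMUSG00000021388) lies on chromosome 13 from 49544443 to 49567565 on the plus strand. Thbs2 (ENSMUSG00000023885) lies on chromosome 17 from 14665500 to 14694235 on the minus strand, the same chromosome as Runx2 (44495987 to 44814797, minus strand). Position in the limb was not measured, so the name perichondrium or groove rests on these markers alone.

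Members came from every library. There were 121 in tdT+ replicate 1, 159 in tdT+ replicate 2, 39 in tdT- replicate 1 and 117 in tdT- replicate 2. Their median depth was 28177, 24721, 20116 and 21305 UMIs in the same order, against 25346, 19960, 12185 and 17329 UMIs in the other barcodes with F at or above C. No member barcode sequence was a member in a second library, and 3 to 12 barcode sequences were shared by any pair of libraries. A genotype could be given to 370 members, 225 MOE and 145 control. Another 38 held sex genes of both sides and 28 held too few, and these entered no comparison of genotypes. The MOE pseudobulk of tdT- replicate 1 held only 10 members and 199129 UMIs, while the others held 19 to 88 members and 480226 to 2384716 UMIs.

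The tdT- replicate 1 library stood apart. The summed level of replication-dependent histone genes in its members was 2836 CPM in MOE (counts scaled to a common library sum) and 3070 in control, and in the 6 other pseudobulks it lay between 783 and 1421. The share of members by fraction is also given without this library. So are the counts of calls by genotype, by fraction and in the effects against the other barcodes with F at or above C. The values of those single genes for which it is said are given without it too. One more pseudobulk was low in G2M genes, with 2325 CPM in control tdT- replicate 2 against 4010 to 5229 in the others.

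The 2 genes of the rule and the 3 other marker genes were described first, with no test, since Aspn and Thbs2 chose the members. Aspn reached 461, 350, 407 and 331 CPM in members of tdT+ replicates 1 and 2 and tdT- replicates 1 and 2. In the other barcodes with F at or above C it was 338, 226, 163 and 148. Thbs2 reached 126, 137, 133 and 89.9 in members, against 90.5, 69.9, 47.7 and 54.8. Both genes were thus higher in members in each library, which selection on their sum favours. The other class was not free of them, and 416 of its barcodes reached the Aspn and Thbs2 limit but failed another one. Of these, 343 failed on Scx and Tnmd, 88 on Sp7 and 7 on Gdf5.

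**Figure D1:**
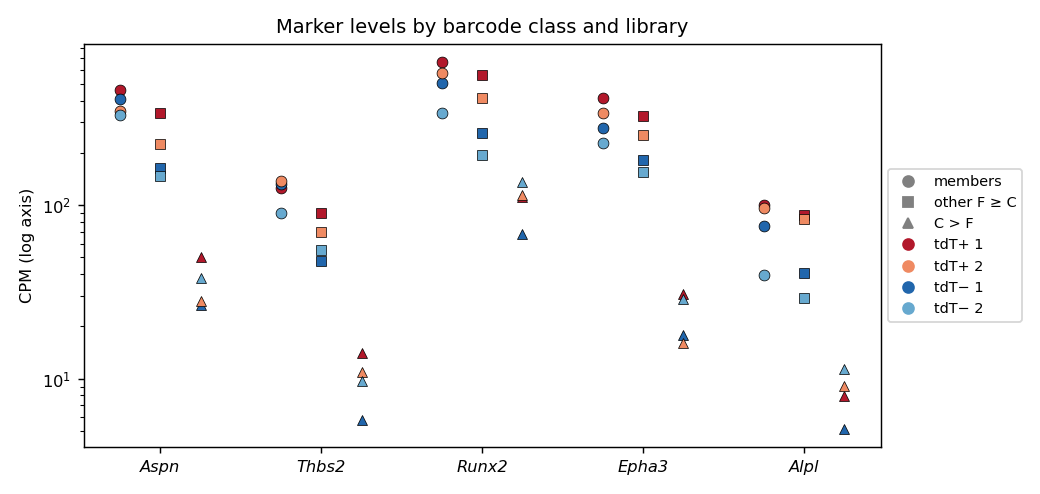
Levels of the 5 marker genes in CPM (log axis) for members, other barcodes with F at or above C and barcodes with C above F, 1 point per library. In each library members sat above both other classes for all 5 genes, and the barcodes with C above F were lowest.

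The 3 marker genes that the rule did not use were also higher in members, by less. Runx2 was at 666, 579, 508 and 340 CPM in members of tdT+ replicates 1 and 2 and tdT- replicates 1 and 2, and at 566, 413, 261 and 196 in the other barcodes with F at or above C. Epha3 was at 416, 341, 277 and 228 against 325, 254, 182 and 156. Alpl was at 100.2, 96.8, 75.6 and 39.4 against 87.2, 82.9, 40.5 and 29.2. The median log2 difference over the 4 libraries was 0.64 for Runx2, 0.49 for Epha3 and 0.33 for Alpl. Compared only with the 841 barcodes that failed no limit but that on Aspn and Thbs2, the log2 differences were larger, 1.18 for Runx2, 1.20 for Epha3 and 1.72 for Alpl.

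Single barcodes varied widely. A UMI of Runx2 was found in 82.3% of members, of Epha3 in 68.3% and of Alpl in 46.3%, at a median depth of 23914 UMIs. A second class was taken for a background, 292 barcodes with at least 5 UMIs of endothelial or immune markers and F under 100. Its shares were 60.3%, 10.6% and 16.4% at a median depth of 30011 UMIs. With each barcode thinned to 3000 UMIs, the shares were 54.6%, 41.1% and 20.6% in members and 22.6%, 4.11% and 1.71% in the 292 barcodes. Their own values went against endothelial or immune cells. Col2a1 was at 5878 CPM in them against 5918 in the barcodes with C above F, and Sox9 was found in 92.8% of them, at 478 against 657 CPM. By these genes they were like the barcodes with C above F, so their shares are no background level, and no class that lacks the genes was used here. Gli1, which reports hedgehog signalling and drives the Cre, was found in 44.3% of members and 9.86% after thinning, and in 30.1% and 3.42% of the same 292 barcodes.

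Members differed in which of Aspn and Thbs2 they held. Both were detected in 324 members, Aspn alone in 88 and Thbs2 alone in 24. Across the 436 members Spearman's rho of their UMIs per 10000 was -0.065, in barcodes that share 4 libraries. Selection on the sum of both genes lowers their correlation, so nothing is read from this value. Members held 9 UMIs of the pair in the median and at most 67, and 65 members sat just inside the limit at 4 UMIs while 109 barcodes sat just outside at 3. Most members were far from the cartilage limit, with a median F of 157 and a median C of 10 UMIs.

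**Figure D2:**
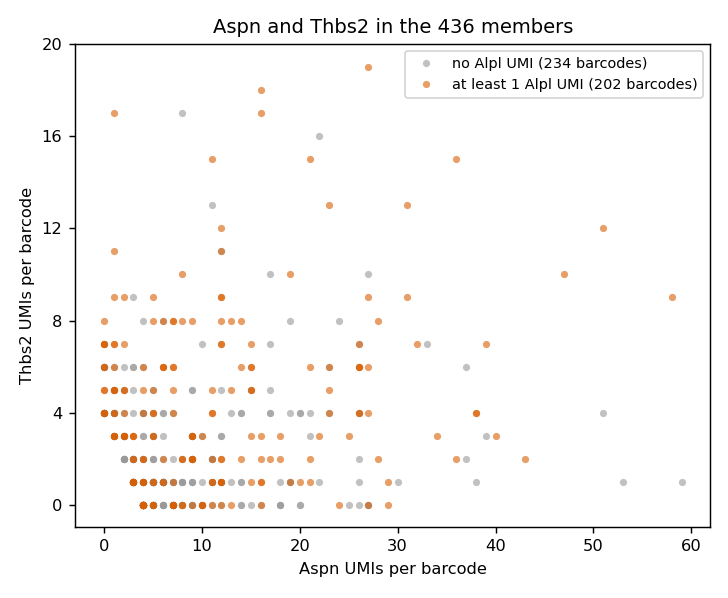
UMIs of Aspn (x axis) and Thbs2 (y axis) in each of the 436 members, coloured by whether the barcode held an Alpl UMI (202 with, 234 without). Members of both kinds were spread along both axes, and the highest Thbs2 values were mostly members with Alpl.

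Some markers of other cell types were scarce in members and others were common. The 5 immune markers summed to 24 UMIs over all members (Cd74 was the most abundant), the 6 muscle markers to 346 and the 6 osteoblast markers to 280, with Dmp1 at 0 and Spp1 giving 48.9% of them. The 5 endothelial markers summed to 1018 UMIs, of which 54.4% were Pecam1, and 41 members held at least 5. Chondrocyte markers were present at 1274 CPM, of which 56.1% were Col2a1, against 1555 in the other barcodes with F at or above C, and 373 members held at least 5 of their UMIs. Tenocyte markers summed to 2844 UMIs, of which 67.7% were Tnc, and 207 members held at least 5. Interzone markers summed to 4210 UMIs, of which 69.5% were Sfrp2, and 231 members held at least 5. Both lists were less abundant in members than in the other barcodes with F at or above C, at 241 against 485 CPM for the tenocyte and 357 against 443 CPM for the interzone markers, and the rule limits only Scx, Tnmd and Gdf5 among them. Markers of loose connective tissue were slightly more abundant in members, at 508 against 397 CPM, led by Lum, and 273 members held at least 5 of their UMIs. The part that these RNAs had in the results below was not tested.

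Members were then set against the other barcodes with F at or above C for all genes. This contrast follows from the rule, so it is a description with no test. Of 12707 genes with at least 100 UMIs in either class, 15 (0.118%) were at least 1.5-fold higher in members in 4 of 4 libraries and 71 (0.559%) at least 1.5-fold lower, while the median gene differed by 0.014 on the log2 scale. The other class held more barcodes, so genes high there reached 100 UMIs more easily. Against only the 841 barcodes that failed no limit but that on Aspn and Thbs2, 75 genes were higher and 47 lower, and 8 of the 15 were among the 75. Genes were ordered by the smallest of the 4 library ratios. The first was Zfp804b, a zinc finger gene, with 387, 122, 75.6 and 102 CPM in members of tdT+ replicates 1 and 2 and tdT- replicates 1 and 2, and 41.3, 24.0, 27.2 and 42.0 in the others. Its log2 difference was between 1.28 and 3.23 over the libraries, with a median of 1.90. Slit3, a secreted guidance ligand, was far more abundant, with 725, 636, 557 and 510 CPM in members against 446, 400, 275 and 281. Abcc9, a subunit of the ATP-sensitive potassium channel, rested on 156 UMIs in members and had a median log2 difference of 2.11. The synaptic gene Syt4 had a larger median, 2.56, but members of tdT- replicate 2 held most of it, at 27.6 CPM against 0.715 to 4.63 in the other libraries. Syt4 rested on 105 UMIs in members and 14 in the others, so it entered through the members.

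Genes of several roles made up the rest of the 20 leading genes, of which 15 reached the limit in each library. Slc26a7, an anion transporter, had a median log2 difference of 1.18, Gucy1a1, a subunit of the nitric oxide receptor, of 1.66, and Otor, a secreted protein first described in the cochlea, of 1.31. The receptor gene Ntrk3 (neurotrophin 3 receptor) and the ligand gene Kitl (stem cell factor) differed by 1.04 and 0.77, and Fgf12, an intracellular homologue of the fibroblast growth factors, by 0.69. Ccbe1, a matrix protein needed for lymphatic growth, differed by 1.07. Against the 841 barcodes Ccbe1 differed by 0.34 and Kitl by 0.39, and Ntrk3 by 1.28 but with -0.17 in its lowest library. Of the 71 lower genes, 2 were muscle markers (Myod1 and Myog), 1 was an osteoblast marker (Spp1) and 1 an interzone marker (Barx1), and the 4 tenocyte markers that the rule had not used held none. Myog, the myogenic factor, was at 1.09, 6.44, 0 and 15.1 CPM in members and at 7.28, 19.9, 6.32 and 83.8 in the others, and Vgll2 and Rbm24, which are also expressed in muscle, had median log2 differences of -2.73 and -1.98. Thbs4, which is abundant in tendon, differed by -2.33, but by -0.64 against the 841 barcodes, and Ano5 differed by -2.69. The 10 lowest also held Krt17, a keratin gene (median -3.63), Nefm, a neurofilament gene (-2.19), and Lmo2, a factor of blood and endothelial cells (-2.64). Krt17 rested on 10 UMIs in members and 297 in the others, Nefm on 24 and 354 and Lmo2 on 8 and 154. For Vgll2 the UMIs were 12 and 182 and for Ano5 15 and 265. These genes thus entered through the other class, and where members of a library held no UMI the pseudocount set the ratio.

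The lists of related genes moved little. None of the 25 measured genes of the perichondrium and periosteum list reached the 1.5-fold limit in either direction, and their median log2 difference was 0.17. The 11 measured hedgehog pathway genes (median 0.14), the 14 skeletal stem and stromal progenitor markers (0.08) and the 42 S phase genes (-0.06) held none either. Of 14 osteoblast lineage genes that the rule had not used, 2 were lower (Spp1 and Phex) and the median was -0.28, and 1 of the 30 dissociation stress genes, Ier3, was lower.

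A further division lay within the members, between those with and those without an Alpl UMI. Because Alpl was chosen for this split, the values are a description with no test. There were 70 members with Alpl and 51 without in tdT+ replicate 1, 79 and 80 in tdT+ replicate 2, 21 and 18 in tdT- replicate 1 and 32 and 85 in tdT- replicate 2. Of 10113 genes with at least 100 UMIs in all members, 33 (0.326%) were at least 2-fold higher with Alpl in 4 of 4 libraries and 35 (0.346%) at least 2-fold higher without it. Over the 4 libraries together the median depth was 22912 UMIs with Alpl and 25356 without.

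Members with Alpl held more RNA of some osteoblast lineage genes. Runx2 was at 896, 926, 925 and 863 CPM in members with Alpl of tdT+ replicates 1 and 2 and tdT- replicates 1 and 2, and at 288, 244, 97.7 and 174 in members without. The groups did not overlap, and the median log2 difference was 2.11. Dlx5, a homeobox gene of early osteoblasts, was at 109, 92.9, 109 and 77.8 with Alpl against 25.8, 30.9, 25.0 and 27.2 without. Of 11 measured osteoblast lineage genes, 4 (Runx2, Dlx5, Dlx6 and Spp1) were at least 2-fold higher with Alpl in 4 of 4 libraries and none lower, and the list's median was 0.45 against -0.04 over all genes. Clec11a, the osteogenic factor osteolectin, had a median log2 difference of 2.04 and Mmp9, a gelatinase, one of 2.57.

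Genes of other kinds were high with Alpl as well. Podnl1, a small leucine-rich proteoglycan, differed by 2.67 in the median, the receptor phosphatase Ptpru by 2.13, Tspan18 by 2.34, the purinergic receptor P2ry1 by 2.97 and Pdzrn4 by 2.10. Of the hedgehog pathway genes, Ptch1, the receptor and target of the pathway, was higher with Alpl in each library by 0.68 to 1.45, while the hedgehog coreceptor genes Gas1, Boc and Cdon were lower with Alpl in each library, with medians of -1.65, -0.89 and -1.16. None of the 11 measured hedgehog genes reached 2-fold in all 4 libraries. Epha3 was higher by 0.08 to 1.41 and Thbs2 by 0.48 to 1.11, whereas Aspn differed by -0.0029 to 0.52.

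Members without Alpl held more RNA of some loose connective tissue genes. Osr1, a zinc finger factor of connective tissue fibroblasts, was at 58.2, 55.2, 18.2 and 62.2 CPM in members without Alpl of tdT+ replicates 1 and 2 and tdT- replicates 1 and 2, and at 3.95, 4.38, 2.31 and 2.73 in members with it. Dcn, which encodes decorin, was at 248, 133, 4.55 and 157 without and at 16.2, 10.7, 0 and 40.9 with Alpl, so it was low in both groups in tdT- replicate 1. Of the 5 measured markers of loose connective tissue, these 2 were at least 2-fold higher without Alpl and the list's median was -1.46, while Lum had a median of -0.12. Osr2 had a median of -1.46 but was higher with Alpl in tdT- replicate 1, by 1.79. Col14a1 went the other way, with a median of 0.52, though it was at -0.84 in tdT+ replicate 2. The chemokine Cxcl14 had a median log2 difference of -1.91, the glypican Gpc5 of -2.73, the BMP antagonist gene Vwc2 of -2.03 and the chondrogenic factor Sox5 of -1.71. Sox9, the master regulator of chondrocytes, was lower with Alpl in each library by 0.40 to 1.17 on the log2 scale (median -1.05), while Col2a1 had a median of -0.09. The other chondrocyte markers did not follow Sox9 as a group. Matn1 and Snorc were higher with Alpl in each library (medians of 0.68 and 0.66), Cnmd was lower (-0.31) and Hapln1 had a median of 0.02. The median of all 6 markers was -0.03, against -0.04 over all genes.

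**Figure D3:**
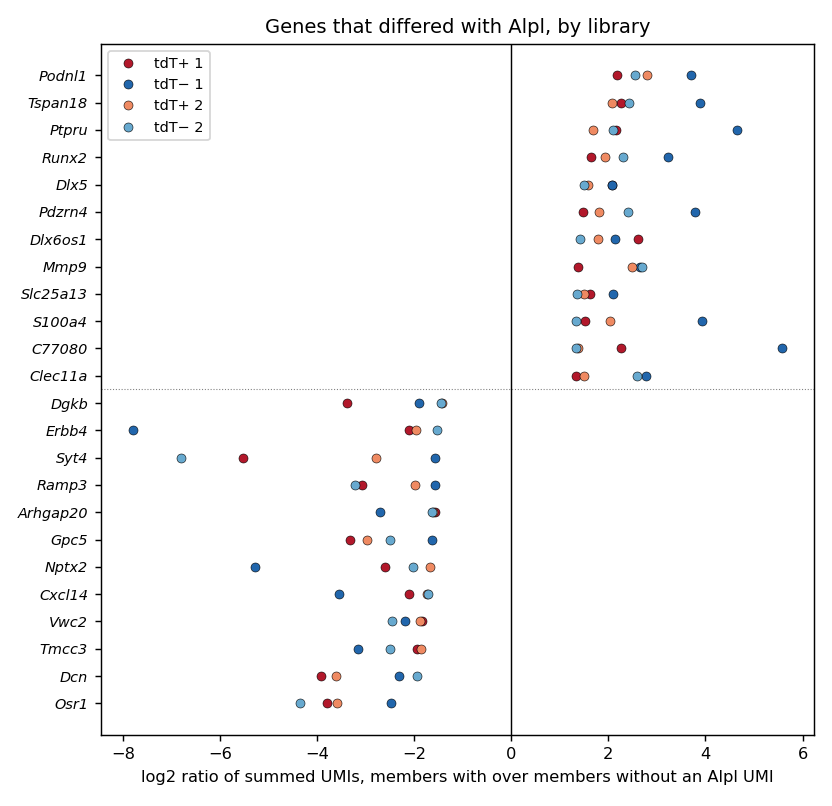
Log2 ratio of summed UMIs in members with an Alpl UMI over members without (x axis), 1 point per library, for 12 of the 15 genes highest with Alpl and 12 of the 15 highest without among genes of at least 100 UMIs. Each gene kept its side of 0 in 4 of 4 libraries, from Podnl1 and Tspan18 at the top to Dcn and Osr1 at the bottom, and tdT- replicate 1, with the fewest members, gave many of the outlying points.

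RUNX proteins bind the letters TGTGGT, which were searched on both strands in the RefSeq windows from 250 bases before to 50 after each gene start (GRCm38.p6). Of 32851 windows in all, 16.8% held the motif. Of the 15 genes highest with Alpl, 9 had a window and 2 of their 14 windows held it (14.3%), those of Pdzrn4 and Runx2, and none of the 15 windows of the genes highest without Alpl did. The Pdzrn4 match and 1 of the matches of Runx2 are shown because both genes ran with Alpl. Both lie before the start of the window's RefSeq transcript but inside the gene as GENCODE gives it, where longer transcripts start farther upstream. The first is on the plus strand at chr15:92596937-92596966 and the second on the minus strand at chr17:44814690-44814719. Capitals mark the motif, read here from the opposite strand.
Pdzrn4: gaattttgtttaACCACActacatttgctt
Runx2: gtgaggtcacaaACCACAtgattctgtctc

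A second split set the 331 members with more Aspn than Thbs2 against the 85 with more Thbs2 than Aspn. Genes entered with at least 100 UMIs over all members, most of which were Aspn-led, so a gene high only in Thbs2-led members could hardly enter, and the counts in the 2 directions are not compared. Penk, the precursor of enkephalins, was the most abundant of the genes at least 2-fold higher in Aspn-led members in 4 of 4 libraries, at 286, 254, 317 and 590 CPM in Aspn-led members of tdT+ replicates 1 and 2 and tdT- replicates 1 and 2 against 57.2, 94.7, 111 and 82.2. Lgr5, a receptor of R-spondins, was at 24.3, 14.96, 31.3 and 33.6 against 0, 1.03, 5.05 and 1.13, on 205 and 3 UMIs, so it entered through the Aspn-led members. Pecam1, an endothelial adhesion gene, was at 15.4, 59.5, 23.5 and 132 against 0, 11.3, 0 and 23.7, on 510 and 32 UMIs, so it too entered through the Aspn-led members. The other measured endothelial markers did not keep its direction. Emcn had a median log2 difference of 1.56 but was at -0.84 in tdT- replicate 2. Egfl7 had a median of 0.32 and was at -0.13 in tdT+ replicate 1 and -0.64 in tdT- replicate 2. The 52 measured G2M genes had a median log2 difference of -0.69 against 0.00 over all genes, and the 41 S phase genes had a median of -0.08. Thbs2-led members were few in tdT- replicate 1, with 7 barcodes.

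Members made up a larger share of the barcodes with F at or above C in the tdT+ fraction. In tdT+ replicate 1 the share was 34.6% in MOE (56 of 162) and 36.2% in control (54 of 149), and in tdT+ replicate 2 it was 24.3% (88 of 362) and 25.0% (49 of 196). In tdT- replicate 1 it was 16.9% in MOE (10 of 59) and 21.3% in control (19 of 89), and in tdT- replicate 2 it was 18.4% (71 of 385) and 22.1% (23 of 104). The lowest tdT+ value thus lay above the highest tdT- value. The mean was 30.0% ± 6.25 (SD, n = 4) in tdT+ and 19.7% ± 2.43 (SD, n = 4) in tdT-, a difference of 10.3 points (exact permutation over pseudobulks, two-sided, p = 0.0286, which is as low as 4 against 4 can go). The values come from 2 libraries per fraction, the genotypes of a library share 1 reaction, and with the embryo pools paired the exact p was 0.125, as low as 4 pairs can go. Leaving out any tdT- pseudobulk gave an exact p of 0.0857, and without the whole tdT- replicate 1 library the difference was 9.75 points (exact p = 0.133).

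By genotype the share did not separate. It was 23.6% ± 7.99 (SD, n = 4) in MOE and 26.2% ± 6.89 (SD, n = 4) in control, a difference of -2.61 points that was smaller than the spread between pseudobulks (exact permutation, two-sided, p = 0.571). The share was lower in MOE in 4 of 4 libraries, and paired within libraries the exact p was 0.125, as low as 4 pairs can go. With each barcode thinned to 10000 UMIs it was 42.4% in MOE and 38.8% in control in tdT+ replicate 1 and 20.0% in both in tdT- replicate 1, and the difference was -0.54 points (exact p = 0.914). Of all barcodes with a genotype the difference was also -0.54 points (exact p = 0.886), and members took a larger share in MOE in both libraries of replicate 1. The direction turned to 0.545 points when membership needed 6 UMIs of Aspn and Thbs2 (exact p = 0.914) and to 0.746 points without control tdT+ replicate 1 (exact p = 0.943), while without MOE tdT+ replicate 1 it was -6.28 points (exact p = 0.229). Exact 95% binomial intervals, which cover counting error only, ran from 8.44% to 29.0% in the smallest pseudobulk and from 14.7% to 22.7% in the largest.

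**Figure D4:**
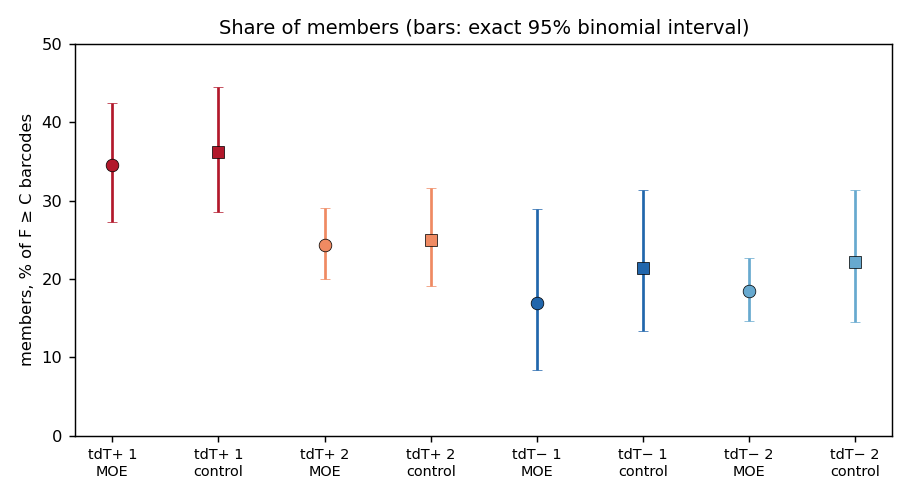
Members as a percentage of barcodes with F at or above C in each of the 8 pseudobulks, with exact 95% binomial intervals (counting error only). The 4 tdT+ values lie between 24.3% and 36.2% and the 4 tdT- values between 16.9% and 22.1%, with circles for MOE and squares for control.

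The comparison of MOE with control asked whether p21 in cartilage was accompanied by a change in cells of this profile. edgeR's quasi-likelihood test with the fraction as covariate called 0 of 11585 genes (0%) at an adjusted p of 0.05, and 496 genes had an unadjusted p under 0.05 (4.28%). The call limit was not met in either direction, but DESeq2 called 5 genes, and edgeR called 8 without the tdT- replicate 1 library, 6 without its MOE pseudobulk alone and 1 without control tdT- replicate 2. Summing the fractions of each embryo pool, which leaves 2 pools per genotype, also gave calls, and the last section holds their count. Cdkn1a, which encodes p21, was low in members and did not pass. It was at 10.5 and 5.19 TMM-scaled CPM in tdT+ MOE replicates 1 and 2, at 10.0 and 8.85 in tdT- MOE, at 7.37 and 6.35 in tdT+ control and at 30.1 and 6.12 in tdT- control. These values rest on 90 UMIs in all, and the log2 difference was -0.35 ± 0.49 (SE, n = 4 per genotype, adjusted p = 1, edgeR). The negative sign rested on control tdT- replicate 1, and without the tdT- replicate 1 library the difference turned to 0.25 (adjusted p = 1.00). The p21 transgene's own transcript could not be told apart from that of tdTomato, since both carry WPRE, and WPRE differed by 0.25 ± 0.22 (SE) between the genotypes (adjusted p = 1, edgeR).

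The genes with the lowest p did not pass by edgeR in the fit of all libraries. Scara5, a ferritin receptor of fibroblasts, was at 18.3, 17.3, 5.00 and 16.2 TMM-scaled CPM in MOE and at 1.23, 2.38, 1.88 and 0 in control (tdT+ replicates 1 and 2, then tdT- replicates 1 and 2). The genotypes did not overlap, on 113 UMIs in all, and the log2 difference was 3.38 ± 0.51 (SE, adjusted p = 0.208, edgeR). Csmd3, a large membrane protein gene, was at 48.1, 86.9, 45.0 and 191 in MOE and at 20.9, 10.3, 16.9 and 28.6 in control (log2 difference 2.31 ± 0.38, adjusted p = 0.248). Mid1, a microtubule-binding ubiquitin ligase gene, gave 1.54 ± 0.27 (adjusted p = 0.288), Fxyd7, a subunit of the sodium pump, 0.91 ± 0.17 (adjusted p = 0.302) and the immediate early factor Klf6 0.81 ± 0.16 (adjusted p = 0.302). Without the tdT- replicate 1 library Csmd3 and Scara5 passed, at adjusted p of 0.0358 and 0.0480 (edgeR). DESeq2 on all libraries called Csmd3 (adjusted p = 0.00234), Mid1 (0.00569), Scara5 (0.0320) and Fxyd7 (0.0444).

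Among genes lower in MOE, Sox9 stood out for its level. It was at 177, 150.0, 65.0 and 180 TMM-scaled CPM in MOE and at 232, 354, 359 and 355 in control, so the genotypes did not overlap. The log2 difference was -1.07 ± 0.23 (SE, lower in 4 of 4 libraries, adjusted p = 0.387, edgeR), and DESeq2 gave an adjusted p of 0.0320. The homeobox gene Pknox2 differed by -1.64 ± 0.31 (adjusted p = 0.302), Rbm47 by -1.39 ± 0.31 (0.475), the centrosomal gene Cep41 by -1.01 ± 0.20 (0.302) and the potassium channel gene Kcnb2 by -0.88 ± 0.21 (0.626), each lower in 4 of 4 libraries. These last 4 passed by neither tool. All 6 chondrocyte markers had a negative difference, with a median of -0.32. Of them 1, Sox9, had an unadjusted p under 0.05 by edgeR, against 4.28% of all 11585 genes.

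By edgeR no gene of the lists passed. Nor did the 5 marker genes of the class, with log2 differences of 0.35 ± 0.22 for Aspn, -0.14 ± 0.16 for Thbs2, 0.39 ± 0.18 for Runx2, 0.63 ± 0.33 for Alpl and 0.66 ± 0.25 for Epha3 (SE, adjusted p = 1 for each, edgeR). The unadjusted p was 0.0227 for Epha3 and 0.0457 for Runx2. Without the tdT- replicate 1 library the differences were 0.09 for Aspn, -0.08 for Thbs2, 0.25 for Runx2, 0.35 for Alpl and 0.29 for Epha3, and none passed. The 11 measured hedgehog genes had a median of 0.03, with Ptch1 at 0.00 ± 0.22 (-0.26 without the tdT- replicate 1 library) and Gli1 at -0.01 ± 0.26. Pdgfra, a receptor of fibroblasts, was at 175 ± 7.74 (SD, n = 4) TMM-scaled CPM in MOE and 175 ± 21.6 in control. The 25 perichondrium and periosteum genes had a median of 0.05. Postn, the matrix protein periostin, was the one closest to passing (0.77 ± 0.20, higher in 4 of 4 libraries, adjusted p = 0.80). The 53 measured G2M genes had a median of 0.15 and the 42 S phase genes of -0.07. The summed G2M level differed mainly in tdT- replicate 2, at 4534 CPM in MOE against 2325 in the control pseudobulk that was low, and in the other 3 libraries it was 4284 against 4010, 5106 against 5229 and 4901 against 4994. The 43 measured replication-dependent histones had a median of -0.59, against 0.00 over all genes, with 4 positive and 39 negative and none past the threshold. Their summed level was lower in MOE in 3 of 4 libraries, only slightly so in tdT- replicate 1 (2836 against 3070 CPM), and higher in MOE in tdT- replicate 2 (1024 against 783). The 8 CDK inhibitors and D cyclins measured had a median of -0.09 and the 13 p53 targets of -0.03. Of the markers of other cell types none passed. The 5 measured markers of loose connective tissue all had a positive difference, with a median of 0.58. Of these, 3 had an unadjusted p under 0.05 by edgeR, against 4.28% of all 11585 genes. The summed level of the list was higher in MOE in 4 of 4 libraries. The 3 measured pericyte and smooth muscle markers also had a positive difference (median 2.79, 2 under 0.05, against the same 4.28%). The summed level of their list was 167 CPM in MOE and 53.04 in control in tdT- replicate 2, but 20.0 and 39.5 in tdT- replicate 1. The part of these markers in the differences between the genotypes was not tested.

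**Figure D5:**
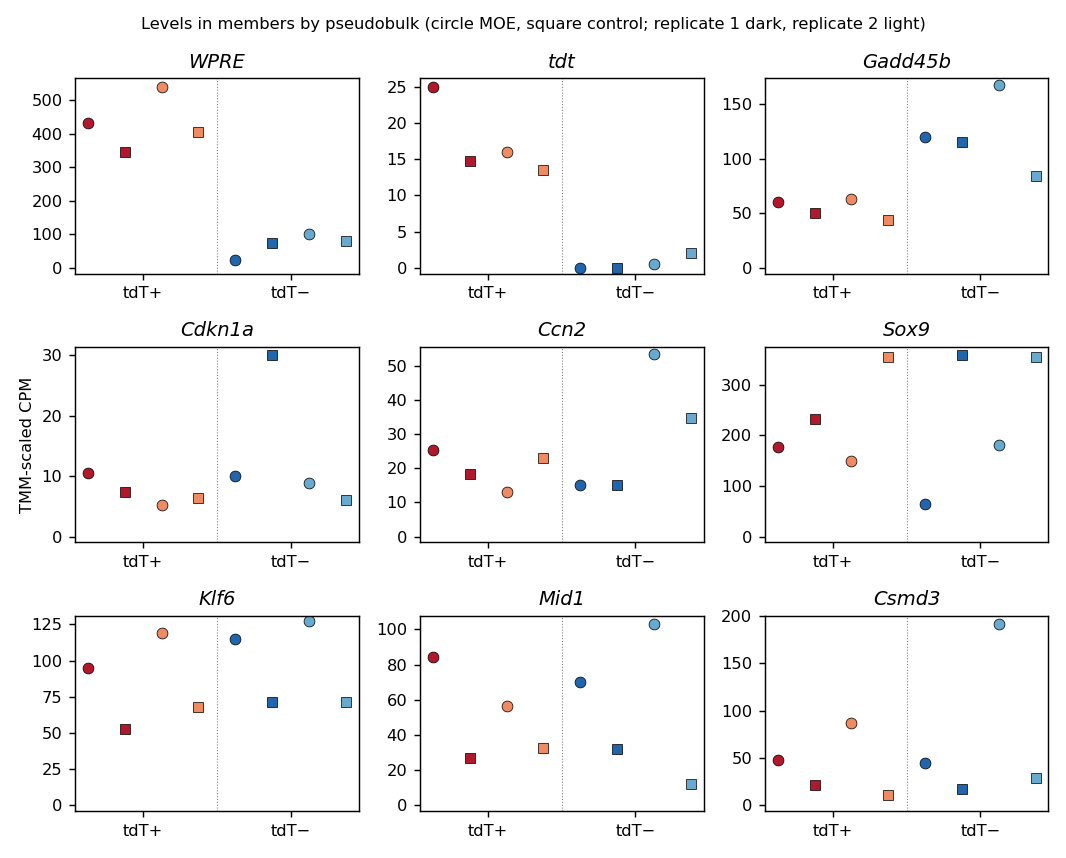
TMM-scaled CPM of 9 genes in the members of each pseudobulk, tdT+ left and tdT- right of the dotted line, circles for MOE and squares for control, replicate 1 dark and replicate 2 light. WPRE and tdt were high in tdT+ and Gadd45b low, Sox9 lay lower and Klf6, Mid1 and Csmd3 higher in MOE than in control in each library, and Cdkn1a had 1 high value in control tdT- replicate 1.

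The comparison of tdT+ with tdT- members, with genotype as covariate, called 3 of 11585 genes (0.0259%), 2 higher and 1 lower in tdT+. Both higher ones were transgene features. WPRE, an RNA element in the tdTomato and p21 transgenes, was at 433, 346, 540 and 405 TMM-scaled CPM in tdT+ (MOE and control of replicate 1, then of replicate 2) and at 25.0, 75.2, 101 and 79.6 in tdT-. Its log2 difference was 2.44 ± 0.23 (SE, n = 4 per fraction, adjusted p = 0.00150, edgeR). The tdt feature, the reporter itself, was at 24.9, 14.7, 15.998 and 13.49 in tdT+ and at 0, 0, 0.492 and 2.04 in tdT- (4.66 ± 0.62, adjusted p = 0.0285), which checks the sort. CreERT2 did not enter the test and averaged 3.06 ± 1.01 (SD, n = 4) in tdT+ and 5.36 ± 2.82 in tdT-.

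The gene that fell was Gadd45b, a stress-inducible gene. It was at 60.3, 50.4, 62.7 and 43.6 TMM-scaled CPM in tdT+ and at 120, 115, 167 and 83.6 in tdT-, so the fractions did not overlap (log2 difference -1.19 ± 0.17, SE, lower in 4 of 4 pools, adjusted p = 0.0376, edgeR). With the embryo pools as a replicate block the fit called 1 gene, WPRE (adjusted p = 0.00113), while tdt (0.100) and Gadd45b (0.103) did not pass. Leaving out MOE or control of tdT+ replicate 1, MOE or control of tdT+ replicate 2, control tdT- replicate 1 or MOE tdT- replicate 2 also left 1 call. Without the tdT- replicate 1 library 32 genes were called, 7 of them higher, with MOE tdT- replicate 1 alone left out 23, and without control tdT- replicate 2 it was 7.

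Genes of the dissociation stress list ran the same way as Gadd45b. Over all 11585 genes, 674 (5.82%) had an unadjusted p under 0.05 by edgeR, 438 of them lower in tdT+. All 30 genes of the list had a negative log2 difference, none passed and 15 had an unadjusted p under 0.05. The list's median was -0.46, with that of all genes near 0. Their summed level was 6603, 5273, 7376 and 6908 CPM in tdT+ and 6762, 9600, 8280 and 9069 in tdT-, so the fractions overlapped through MOE tdT- replicate 1. In the other barcodes with F at or above C the list's median was -0.43, also with 30 negative, and 5 genes (Atf3, Junb, Socs3, Fos and Ier3) were called lower by edgeR. Over all genes that fit called 162 of 13304, 66 higher and 96 lower in tdT+. In the barcodes with C above F the list's median was -0.03, with 10 positive and 20 negative. There 1 of the 30 had an unadjusted p under 0.05, against 6.16% of all 13346 genes. In members the 6 chondrocyte markers were also lower in tdT+, with a median of -0.69. None of them passed and 4 had an unadjusted p under 0.05, against 5.82% of all genes. Their part in the other differences between the fractions was not tested.

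Further genes moved the same way in 4 of 4 pools but did not pass by edgeR in the fit of all libraries. Higher in tdT+ were Rpl39l, a ribosomal protein gene (1.55 ± 0.26, adjusted p = 0.0995), Socs5, a suppressor of cytokine signalling (1.41 ± 0.28, 0.148), and Thy1, a surface marker of fibroblasts (1.33 ± 0.29, 0.237). Lower in tdT+ were Chst11, a chondroitin sulfotransferase gene (-1.53 ± 0.25, 0.0995), Cpne8 (-1.38 ± 0.23, 0.0995), the collagen gene Col19a1 (-2.83 ± 0.49, 0.100) and the carboxypeptidase gene Cpa6 (-2.74 ± 0.49, 0.126), with SE and edgeR adjusted p throughout. Without the tdT- replicate 1 library Rpl39l, Cpne8, Col19a1 and Cpa6 passed, at adjusted p of 0.00468 to 0.0400 (edgeR). DESeq2 on all libraries called these 4 and Chst11, at adjusted p of 0.00157 to 0.0257. Acta2, the smooth muscle actin gene, did not move the same way in each pool and rested on MOE tdT- replicate 2, at 84.1 TMM-scaled CPM against 0 to 8.16 in the other 3 tdT- pseudobulks. The 3 measured pericyte and smooth muscle markers had a median of -2.54, with none past the threshold.

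Osteogenic and hedgehog genes did not pass in the fit of all libraries. Alpl was at 101, 89.1, 113 and 96.0 TMM-scaled CPM in tdT+ and at 160, 30.1, 46.2 and 24.5 in tdT-, a difference of 1.01 ± 0.35 (SE, adjusted p = 0.633, edgeR). The high tdT- value came from the pseudobulk of 10 members, and without the tdT- replicate 1 library Alpl passed at 1.43 (adjusted p = 0.0179). Runx2 differed by 0.41 ± 0.18 (adjusted p = 0.794) and by 0.74 without that library (adjusted p = 0.0652). Aspn (-0.02 ± 0.22), Thbs2 (0.32 ± 0.17) and Epha3 (0.54 ± 0.26) did not pass. Of 11 hedgehog genes none passed. Hhip, a hedgehog-binding antagonist, gave 1.39 ± 0.62 (unadjusted p = 0.0445), but it had no UMI in tdT- replicate 1, and without that library it gave 0.88 (adjusted p = 0.773). Gli1, the locus of the CreER allele, differed by 0.37 ± 0.28 (adjusted p = 0.988) and by 0.63 without that library (adjusted p = 0.589). Wnt5a, a ligand of the perichondrium list, was higher in 4 of 4 pools (0.55 ± 0.14, adjusted p = 0.433).

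The interaction of genotype and fraction within members called 0 of 11585 genes (0%), with 371 at an unadjusted p under 0.05 by edgeR, and DESeq2 called 0.

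Effects were then compared between classes in the same libraries. Against the barcodes with C above F, the genotype effect differed for 0 of 13513 genes (0%), with 551 at an unadjusted p under 0.05 by edgeR, and 1 gene by DESeq2. Ccn2, a YAP target, had a genotype difference of -1.35 ± 0.13 on the log2 scale in the barcodes with C above F and of 0.29 ± 0.36 in members. The difference of these effects was 1.59 ± 0.36 (SE, unadjusted p = 0.000568, adjusted p = 0.698), so it did not pass. The 30 dissociation stress genes had a median genotype difference of -0.32 in the barcodes with C above F, with 5 positive and 25 negative. In members their median was 0.07, with 19 positive and 11 negative. The part of this list in the values for Ccn2 was not tested. WPRE gave 2.34 ± 0.39 in the barcodes with C above F and 0.25 ± 0.22 in members, a difference of -1.99 ± 0.49 (adjusted p = 0.982).

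Against the other barcodes with F at or above C, the genotype effect differed for 2 of 12832 genes (0.0156%). Csmd3 averaged 92.8 ± 68.9 (SD, n = 4) TMM-scaled CPM in MOE members and 19.3 ± 7.74 in control members, while in the other barcodes it averaged 66.7 ± 36.7 and 69.4 ± 39.7. The difference of the effects was 2.16 ± 0.28 (SE, same sign in 4 of 4 libraries, adjusted p = 0.0329, edgeR). Pdzrn4, one of the genes high with Alpl, averaged 62.6 ± 9.65 and 36.9 ± 29.9 in members and 23.4 ± 7.08 and 58.7 ± 28.0 in the others (2.07 ± 0.29, adjusted p = 0.0421). Neither was called without control tdT+ replicate 1, MOE tdT+ replicate 2, control tdT- replicate 2 or MOE tdT- replicate 2, and 1 gene was called without MOE tdT- replicate 1. In the other class the 5 measured muscle markers had a positive genotype difference (median 2.58), and none passed. All 5 had an unadjusted p under 0.05 by edgeR, against 4.55% of all 13304 genes. Their part in the results for Csmd3 and Pdzrn4 was not tested.

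The effect of the fraction differed for 5 of 12832 genes (0.039%), 3 with a larger and 2 with a smaller tdT+ to tdT- difference in members. Mkx, a transcription factor of tendon, averaged 26.4 ± 7.76 (SD, n = 4) TMM-scaled CPM in tdT+ members and 13.0 ± 2.29 in tdT- members, but 24.3 ± 2.69 and 58.7 ± 8.23 in the others (2.36 ± 0.29, SE, adjusted p = 0.0151, edgeR). Brinp3 averaged 26.0 ± 13.6 and 7.61 ± 10.0 in members and 25.7 ± 8.52 and 62.7 ± 33.9 in the others (3.18 ± 0.44, adjusted p = 0.0195). Zfp804b averaged 265 ± 182 and 83.1 ± 48.9 in members and 32.9 ± 21.2 and 36.6 ± 15.6 in the others (1.74 ± 0.26, adjusted p = 0.0351). The transcription factor gene Maf rose from tdT- to tdT+ in the others, from 76.1 ± 11.1 to 197 ± 23.3, and averaged 195 ± 35.4 and 220 ± 25.3 in members (-1.19 ± 0.16, adjusted p = 0.0195). Ibsp, which encodes bone sialoprotein, gave -6.86 ± 1.05 (adjusted p = 0.0370) and did not keep its direction in each pool. Tendon and osteoblast barcodes stand in the other class by the rule. In that class the comparison of tdT+ with tdT- called 162 of 13304 genes by edgeR, 66 higher and 96 lower in tdT+. There 5 of the 6 tenocyte markers had a negative difference (median -1.01, Kera and Mkx called lower). The 4 measured osteoblast markers had a positive one (median 1.63, Sp7 called higher). Their part in the results for Mkx and Ibsp was not tested. The count was 3 without the tdT- replicate 1 library, of which 2 were among these 5, and 3 without MOE tdT+ replicate 2. It was 1 without control tdT+ replicate 1, 1 without MOE tdT- replicate 2, which was another gene, and 0 without control tdT- replicate 2.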

How the data were processed

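Reads were aligned by the authors with Cell Ranger 7.2.0 (GRCm38 plus transgene sequences), and for each library the deposited matrix holds raw UMI counts. The study's later steps (CellBender, DoubletFinder, removal of shallow barcodes) are not evident in these counts. Total counts were 20770520 and 31871634 UMIs in tdT+ replicates 1 and 2 and 11945062 and 39435830 in tdT- replicates 1 and 2. No doublet caller was applied to the main values. Scrublet called 0 members and 7 of 3640 barcodes, which is too few to rely on, and leaving out its top 5% of scores was an alternative.

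Genotype was read from Xist against 4 Y-linked genes, with at least 2 UMIs of which 80% were on 1 side. Members with a genotype were summed per library and genotype. Log2 ratios of summed counts used a pseudocount of 0.5 scaled to library size. Sums were tested in R 4.3.3 with edgeR 4.0.16 (filterByExpr, TMM, glmQLFit, Benjamini-Hochberg), with limma 3.58.1 and DESeq2 1.42.0 as alternatives, and the threshold was an adjusted p of 0.05. SE is the log2 difference over the square root of F. Since tdT+ and tdT- samples of a pool are not independent, the p-values measure only the spread between these samples. On simulated counts 200 genes were changed by 1 on the log2 scale. Between genotypes 195 of them entered the test and 48.2% of these were recovered (11255 genes). Between fractions 191 entered and 41.4% of these were recovered (11223 genes). Of the calls, 8.74% and 8.14% were false, more than the threshold of 0.05 stands for.

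Same-numbered tdT+ and tdT- samples share embryos by the study's multiplexing. Their deviations from the fraction means correlated across genes at r = 0.038 and -0.089 in the control pools and -0.082 and 0.148 in the MOE pools. Within a library the genotypes' deviations correlated at -0.038 to 0.102. Coordinates and identifiers come from GENCODE vM21.

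The members, the gene and marker lists and the tests were chosen with earlier results of these data known. The genes named are the rule's and label's genes, Cdkn1a, Gli1, Pdgfra, Ccn2, the transgenes, up to 10 genes per direction of lowest p among those past the threshold with the same direction in 4 of 4 libraries or pools (up to 5 where fewer pass), the 20 genes highest and 10 lowest against the other class, and list members. The splits by Alpl and by Aspn against Thbs2 and the genes named in them, and the examples from lists beyond this rule, were chosen after their values were seen. Some genes that these rules cover are not reported here.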

Additional observations from a re-analysis of the deposited data

Results flagged for a closer look

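Of the values checked, 7 lay far from the other 3 samples of their group by Dixon's criterion at 95%, which chance meets in about 1 group of 20 (84 groups of 4 were checked, so 4.2 would be met). In control, Cdkn1a was at 30.1 TMM-scaled CPM in tdT- replicate 1 against 6.12 to 7.37 in the rest, and the same value stood apart among the tdT- pseudobulks. Sox9 was at 232 in control tdT+ replicate 1 against 354 to 359 in the other controls. In MOE, Scara5 was at 5.00 in tdT- replicate 1 against 16.2 to 18.3. Among tdT- pseudobulks, MOE replicate 1, with 10 members, was high for Alpl (160.0 against 24.5 to 46.2), for Gli1 (45.0 against 18.2 to 22.6) and for Runx2 (755 against 363 to 425).

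For 7 genes the effect differed between members and the other barcodes with F at or above C by a test of the difference itself. The genotype effect differed by 2.16 on the log2 scale for Csmd3 and 2.07 for Pdzrn4. The effect of the fraction differed by 2.36 for Mkx, 3.18 for Brinp3, 1.74 for Zfp804b, -1.19 for Maf and -6.86 for Ibsp.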

How the results depend on the processing

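The counts of calls depended on the tool and the filter. DESeq2 called 5 genes by genotype, 20 by fraction, 1 in the genotype effect against the barcodes with C above F and 8 in the effect of the fraction against the other barcodes with F at or above C. With no filter on low counts edgeR called 157 genes by genotype, 249 by fraction, 59 in the interaction, 118 and 81 in the genotype effect against the barcodes with C above F and the other class, and 134 in the effect of the fraction between classes (the cause was not tested). Summing the fractions of a pool gave 7 calls by genotype. By fraction, limma-voom gave 5, a limit of 6 UMIs of Aspn and Thbs2 1, the replicate block on the embryo pool 1, and all members by library (2 against 2) 0. The replicate block on the library also gave 0 calls by genotype and 0 in the interaction, where there were none to lose. Without the tdT- replicate 1 library, an alternative chosen after seeing the data, the counts were 8 by genotype, 32 by fraction, 1 and 3 in the genotype and fraction effects against the other class, and the share by fraction differed by 9.75 points. The share by genotype turned to 0.545 points at 6 UMIs, and pairing by embryo pool, which cannot move the 10.3 points by fraction, took the exact p from 0.0286 to 0.125.

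With each pseudobulk left out in turn, calls ranged from 0 to 6 by genotype, 1 to 23 by fraction, 0 to 1 in the interaction, 0 to 2 in the genotype effect against the barcodes with C above F and 0 to 2 against the other class, and 0 to 4 in the effect of the fraction. The share by genotype ranged from -6.28 to 0.746 points and by fraction from 8.25 to 12.2 points. Against the barcodes that failed the Aspn and Thbs2 limit alone, 75 genes were at least 1.5-fold higher and 47 lower in members in place of 15 and 71. Depth limits the genotype and fraction results most in tdT- replicate 1, where MOE rests on 10 members. Over 20 settings for the 64 genes followed by genotype and the 62 by fraction, 23 and 34 values were newly past the threshold and, by fraction, 22 no longer past it. By genotype no direction was called, so none could turn, and uncalled signs such as that of Cdkn1a did turn.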
